A study of Mus musculus with 2 samples.

Results

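The G2 and mitosis genes described here are 44 genes whose products condense, attach, separate and partition the chromosomes of a dividing cell. They were taken by name, as the rows of the deposited gene list that carry these symbols, and all 44 were found among 32285 genes. Their mRNA was measured by 3′ single-cell RNA-sequencing (scRNA-seq) of liver sinusoidal endothelial cells (LSECs), in 1 library of control and 1 library of Maf LSEC-KO mice, each from the pooled livers of 3 mice. Maf LSEC-KO mice carried the Clec4g-iCre transgene (tg/wt) together with Maf fl/fl, so that Cre was driven by regulatory sequence of Clec4g, a lectin gene of LSECs, and removed Maf, the gene of the transcription factor c-Maf, from these cells. The controls, which the labels call WT, were littermates without the transgene and with Maf fl/fl or Maf fl/wt alleles, so the control library too came from mice with a floxed Maf allele. Female and male mice were used in the study, but the sex and age of the mice in these pools are not given in the sources used here. The cells had been enriched with beads against CD146, and each library also held immune cells. With 1 library a group, no test of a difference between the genotypes could be made, and each interval given below is an exact 95% interval that covers counting error only.

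Before a cell divides it copies its DNA in S phase, passes through G2, and enters mitosis once Cdk1, bound to a cyclin, becomes active. Microtubules then build a spindle, the kinetochores on the centromeres capture it, a checkpoint delays separation until every chromosome is attached, and the anaphase-promoting complex ends mitosis by marking cyclins and other proteins for destruction. Most of these genes are transcribed late in the cycle, many through promoters with a CCAAT box and a cell cycle genes homology region (CHR), and are nearly silent in resting cells. LSECs of the healthy adult liver are mostly resting and can re-enter the cycle, as after partial hepatectomy.

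LSECs were the cells of endothelial-like clusters that were not marked as doublets and held no UMI of Vwf, a gene of large-vessel endothelium, where a UMI (unique molecular identifier) stands for 1 captured mRNA molecule. This left 4098 control LSECs with a median of 8389.5 UMIs and 3251 Maf LSEC-KO LSECs with a median of 13931 UMIs. The Vwf rule cut the libraries unequally, as it left out 160 control and 1178 Maf LSEC-KO cells. It did not remove large-vessel cells without a Vwf UMI. Wnt9b was a leading gene of control cluster 4 (427 LSECs) and Jag1 of control cluster 7 (161). Gja5 led in Maf LSEC-KO cluster 5 (90) and Ccl21a in cluster 7 (43), so these clusters may hold such cells. Levels are UMIs per 1000000 UMIs outside mitochondrial and ribosomal protein genes (CPM). As each library was sequenced as a whole, a higher depth and more mRNA per cell cannot be told apart. Maf had 113177 UMIs in control and 4965 UMIs in Maf LSEC-KO LSECs, 3473 against 123 CPM, and whether the counted 3′ ends lie within the floxed stretch is not given in the sources used here. All 14 endothelial markers were found in at least 50% of cells in every control cluster from which LSECs were taken, and 13 or 14 of them in the Maf LSEC-KO clusters. In 3 of the 7 control and 2 of the 8 Maf LSEC-KO clusters, at least 2 markers of erythroid or stellate cells were among the 10 leading genes, and results without these clusters are given beside the shares of cells. The libraries shared 10 cell barcodes, and 5 LSECs of each library carried one of them.

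The promoters of the genes are shown first, because all 44 genes were higher in 1 library than in the other and many of their promoters hold 1 or both of a pair of motifs. RefSeq (GRCm38.p6) gave a window from 250 bases before to 50 bases after the start for 37 of the 44 genes, 40 windows in all. The letters TTTGAA, the common core of the CHR, were found on either strand in 27 of these 37 genes (73.0%) and in 20.2% of all 27025 genes with a window. CCAAT, the letters bound by NF-Y, was found on either strand in 29 of them (78.4%) and in 41.1% of all genes. Both were present in 23 of the 37 genes (62.2%) against 8.97% of all genes, where a match of the one may share an end letter with a match of the other. The 38 matched genes of a list of 46 other mitosis genes held TTTGAA in 60.5% and CCAAT in 63.2%, and the 34 matched genes of a list of 45 S-phase genes held TTTGAA in only 17.6% and CCAAT in 67.6%. A match describes letters in a window and is not a bound site. The lines below give the 100 bases before the start, 5′ to 3′, for 8 members that hold both motifs there and, for contrast, for 2 members whose windows hold neither (Birc5 and Nusap1), with TTTGAA and CCAAT in capitals on either strand (TTCAAA and ATTGG are the opposite strand).
Cdk1 (chr10:69352913-69353012, - strand): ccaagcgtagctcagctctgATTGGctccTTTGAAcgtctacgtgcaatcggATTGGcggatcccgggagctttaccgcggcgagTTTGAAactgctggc
Top2a (chr11:99024190-99024289, - strand): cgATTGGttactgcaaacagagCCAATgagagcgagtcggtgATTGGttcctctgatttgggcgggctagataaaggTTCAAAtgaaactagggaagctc
Cks1b (chr3:89418292-89418391, - strand): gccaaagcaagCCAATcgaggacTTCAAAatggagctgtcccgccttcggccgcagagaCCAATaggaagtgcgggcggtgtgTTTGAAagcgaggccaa
Cdc20 (chr4:118437344-118437443, - strand): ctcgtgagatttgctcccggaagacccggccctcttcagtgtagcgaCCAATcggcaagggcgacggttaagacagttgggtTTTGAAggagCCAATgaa
Hmgb2 (chr8:57511743-57511842, + strand): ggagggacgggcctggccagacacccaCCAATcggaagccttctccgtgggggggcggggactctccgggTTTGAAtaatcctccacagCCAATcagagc
Ckap2l (chr2:129297213-129297312, - strand): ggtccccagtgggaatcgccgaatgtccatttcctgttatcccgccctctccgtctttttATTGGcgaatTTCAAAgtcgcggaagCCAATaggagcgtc
Kif11 (chr19:37376282-37376381, + strand): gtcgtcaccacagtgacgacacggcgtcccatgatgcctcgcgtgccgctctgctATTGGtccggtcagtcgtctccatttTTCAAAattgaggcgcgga
Prc1 (chr7:80294376-80294475, + strand): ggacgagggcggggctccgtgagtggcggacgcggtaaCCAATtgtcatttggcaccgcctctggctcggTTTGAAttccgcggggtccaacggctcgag
Birc5 (chr11:117849137-117849236, + strand): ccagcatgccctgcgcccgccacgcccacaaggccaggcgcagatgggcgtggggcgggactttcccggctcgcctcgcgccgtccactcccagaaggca
Nusap1 (chr2:119618198-119618297, + strand): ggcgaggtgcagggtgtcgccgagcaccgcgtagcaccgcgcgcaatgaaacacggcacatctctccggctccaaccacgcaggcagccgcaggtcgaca

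Cdk1 and Cks1b show the arrangement most fully, each with a pair of TTTGAA and a pair of CCAAT matches within the printed stretch, and Top2a holds 3 CCAAT matches before its TTTGAA match. The size of the change between the libraries described below did not follow these letters closely. The 27 members with TTTGAA in the window had a median log2 ratio of 2.59 and the 10 matched members without it a median of 2.53, and Birc5, which holds neither motif, had one of the highest ratios of the 44.

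Control and Maf LSEC-KO LSECs were compared to ask how far the mRNA of the dividing cell differs when Maf is removed. The UMIs of the 44 genes summed to 29965 for control, or 919.5 CPM (909 to 930.0), but to 164412 for Maf LSEC-KO, or 4082 CPM (4062 to 4102). This gave a log2 ratio of 2.15 (2.13 to 2.17), a 4.44-fold higher level. All 44 genes were higher in the Maf LSEC-KO library, each with a counting interval above 0. All 44 passed the filter of a mean of 1 CPM, 43 of them were at least 2-fold higher and 39 at least 4-fold higher, beside 13.5% and 5.3% of the 12383 genes tested. None was 2-fold lower, beside 5.48% of all genes. The members were chosen with earlier results of these data known, so the contrast with all genes is a description. The members' median log2 ratio was 2.53, while that of all genes was 0.15. The ratios ran from 0.91 for Hjurp to 3.24 for Plk1. In these sums, more cells that transcribe the genes and a larger share of UMIs in each such cell are added up. The cell-by-cell values further below are shares of a cell's UMIs and do not give mRNA per cell.

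**Figure D1:**
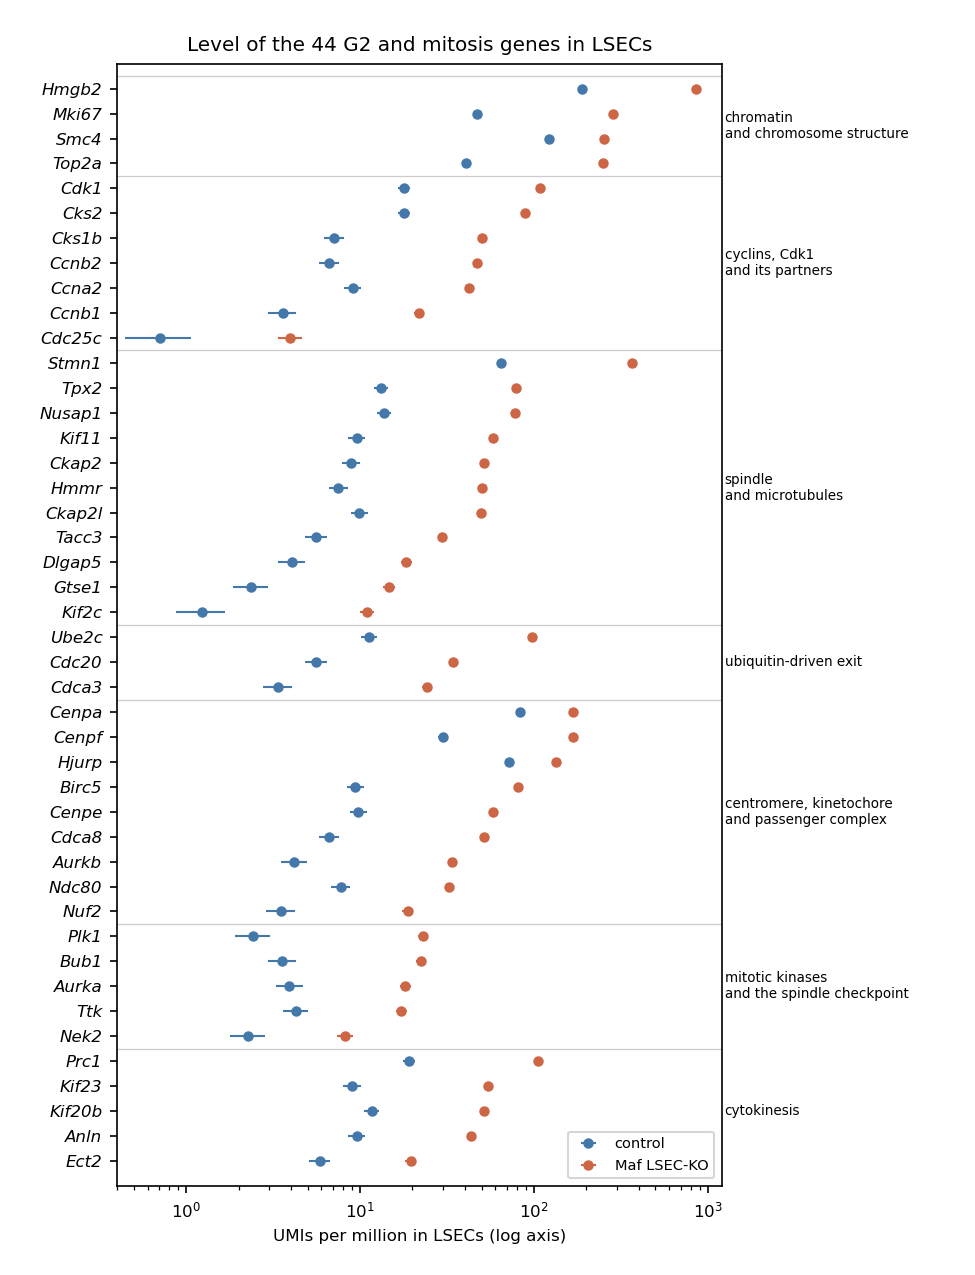
Level of each of the 44 genes in control (blue) and Maf LSEC-KO (orange) LSECs, in CPM on a log axis, grouped by role, with exact 95% Poisson intervals. Each orange point lies to the right of its blue point, from 0.706 against 3.95 CPM for Cdc25c to 188 against 853 CPM for Hmgb2.

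Of the 4 genes of chromatin and chromosome structure, all were at least 2-fold higher, with a summed level of 398 CPM in control, 1645 CPM in the Maf LSEC-KO library and a log2 ratio of 2.05 (2.02 to 2.08). Hmgb2 (ENSMUSG00000054717, mm10, chromosome 8, 57511907 to 57515999), which encodes a DNA-bending chromatin protein, was the most abundant member. Its level was 188 CPM (184 to 193) from 6137 UMIs in the control library, against 853 CPM (844 to 862) from 34342 UMIs in the Maf LSEC-KO library, for a log2 ratio of 2.18 (2.14 to 2.22). Top2a (chromosome 11, 98992943 to 99024189), the topoisomerase that untangles sister DNA, was found at 40.7 CPM (38.6 to 43) from 1327 UMIs in the control library, against 251 CPM (246 to 256) from 10118 UMIs in the Maf LSEC-KO library, for a log2 ratio of 2.63 (2.54 to 2.71). Mki67 (chromosome 7, 135689784 to 135716361) encodes Ki-67, which coats mitotic chromosomes and is the usual marker of cycling cells. Its level was 47.2 CPM (44.8 to 49.6) from 1537 UMIs in the control library, against 287 CPM (281 to 292) from 11547 UMIs in the Maf LSEC-KO library, for a log2 ratio of 2.60 (2.53 to 2.68). Smc4 (chromosome 3, 69004738 to 69034623), the ATPase subunit of condensin, was measured at 122 CPM (118 to 125) from 3961 UMIs in the control library, against 254 CPM (249 to 259) from 10235 UMIs in the Maf LSEC-KO library, for a log2 ratio of 1.06 (1.01 to 1.12). Smc4 thus differed least of the 4, and it was also the one found most widely in control cells after Hmgb2. A UMI of Smc4 was found in 41.8% of control and 62.4% of Maf LSEC-KO LSECs, and one of Hmgb2 in 50.5% of control and 80.9% of Maf LSEC-KO LSECs. Top2a, in contrast, was found in 3.07% of control and 26.5% of Maf LSEC-KO LSECs, and Mki67 in 2.42% of control and 22.9% of Maf LSEC-KO LSECs. With each cell reduced to a random 2700 of its UMIs (thinning), these shares became 20.5% and 29.4% for Smc4, 26.2% and 49.97% for Hmgb2, 1.84% and 14.4% for Top2a and 1.65% and 14.1% for Mki67, in control and Maf LSEC-KO LSECs.

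The 7 genes of the mitotic cyclins, Cdk1 and its partners were all at least 4-fold higher, with a summed level of 62.9 CPM in control, 363 CPM in the Maf LSEC-KO library and a log2 ratio of 2.53 (2.46 to 2.60). Cdk1 (chromosome 10, 69335146 to 69352938), the kinase that drives entry into mitosis, had a level of 17.9 CPM (16.4 to 19.4) from 582 UMIs in the control library, against 108 CPM (105 to 111) from 4353 UMIs in the Maf LSEC-KO library, for a log2 ratio of 2.60 (2.47 to 2.72). Cks2 (chromosome 13, 51645232 to 51650660), a small docking subunit of cyclin-dependent kinases, had one of 17.9 CPM (16.4 to 19.4) from 582 UMIs in the control library, against 89.0 CPM (86.1 to 91.9) from 3583 UMIs in the Maf LSEC-KO library, for a log2 ratio of 2.32 (2.19 to 2.45). A UMI of Cdk1 was found in 7.91% of control and 32.5% of Maf LSEC-KO LSECs and one of Cks2 in 7.35% of control and 31.9% of Maf LSEC-KO LSECs, which fell to 3.17% and 11.8% and to 2.84% and 10.9% at 2700 UMIs per cell. The other members of this group, given as control and Maf LSEC-KO LSECs in turn, were rarer. Cks1b, the relative of Cks2, had 232 and 2036 UMIs, 7.12 and 50.6 CPM, a log2 ratio of 2.83. The B-type cyclins differed in level but little in ratio. Ccnb1 had 117 and 879 UMIs, 3.59 and 21.8 CPM, a log2 ratio of 2.60. Ccnb2 had 217 and 1891 UMIs, 6.66 and 47.0 CPM, a log2 ratio of 2.82. Ccna2, the cyclin of S phase and G2, had 296 and 1710 UMIs, 9.08 and 42.5 CPM, a log2 ratio of 2.22, the lowest ratio of the 7. Cdc25c, the phosphatase that activates Cdk1, was the rarest of all 44 genes, with 23 and 159 UMIs, 0.706 and 3.95 CPM, a log2 ratio of 2.48.

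The 11 genes of the spindle and of microtubules were all at least 4-fold higher and had a summed level of 141 CPM in control, 810.1 CPM in the Maf LSEC-KO library and a log2 ratio of 2.52 (2.48 to 2.57). Stmn1 (chromosome 4, 134468320 to 134473843), which encodes stathmin, a protein that destabilises microtubules, made up the largest part. Its level was 64.9 CPM (62.1 to 67.7) from 2114 UMIs in the control library, against 369 CPM (363 to 375) from 14857 UMIs in the Maf LSEC-KO library, for a log2 ratio of 2.51 (2.44 to 2.57), and it was found in 11.3% of control and 50.2% of Maf LSEC-KO LSECs (4.87% and 25.9% after thinning). Of the genes that nucleate or bundle spindle microtubules, Tpx2 had 430 and 3191 UMIs, 13.2 and 79.2 CPM, a log2 ratio of 2.59. Nusap1 had 449 and 3149 UMIs, 13.8 and 78.2 CPM, a log2 ratio of 2.50. Tacc3, which strengthens kinetochore fibres, had 183 and 1193 UMIs, 5.62 and 29.6 CPM, a log2 ratio of 2.40. Values again stand for control and then Maf LSEC-KO LSECs. The motor gene Kif11, whose product slides spindle microtubules apart, had 311 and 2341 UMIs, 9.54 and 58.1 CPM, a log2 ratio of 2.61. Kif2c, which encodes a kinesin that depolymerises microtubules at the centromere, had 40 and 443 UMIs, 1.23 and 11.0 CPM, a log2 ratio of 3.16, next to that of Plk1 the highest ratio of the 44. Ckap2 and Ckap2l are related genes of microtubule-binding proteins. Ckap2 had 289 and 2090 UMIs, 8.87 and 51.9 CPM, a log2 ratio of 2.55. Ckap2l had 323 and 1992 UMIs, 9.91 and 49.5 CPM, a log2 ratio of 2.32. Hmmr, which encodes a hyaluronan receptor that also acts on spindles, had 245 and 2037 UMIs, 7.52 and 50.6 CPM, a log2 ratio of 2.75. Dlgap5, a gene of kinetochore fibre formation, had 132 and 745 UMIs, 4.05 and 18.5 CPM, a log2 ratio of 2.19. Gtse1, whose product binds microtubule ends, had 77 and 589 UMIs, 2.36 and 14.6 CPM, a log2 ratio of 2.63.

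The 9 genes of the centromere, the kinetochore and the chromosomal passenger complex were the most uneven group, with a summed level of 226 CPM in control, 745 CPM in the Maf LSEC-KO library and a log2 ratio of 1.72 (1.68 to 1.76). The 2 genes that make and load centromeric chromatin had the lowest ratios of all members. Cenpa (chromosome 5, 30666777 to 30674830), the centromeric histone H3, was measured at 83.2 CPM (80.1 to 86.4) from 2712 UMIs in the control library, against 167 CPM (163 to 171) from 6741 UMIs in the Maf LSEC-KO library, for a log2 ratio of 1.01 (0.94 to 1.07). Hjurp (chromosome 1, 88262471 to 88277633), its chaperone, was measured at 71.6 CPM (68.7 to 74.5) from 2332 UMIs in the control library, against 134 CPM (131 to 138) from 5411 UMIs in the Maf LSEC-KO library, for a log2 ratio of 0.91 (0.84 to 0.98), and was the one member under 2-fold. Both were found in many control cells, Cenpa in 38.6% of control and 63.1% of Maf LSEC-KO LSECs and Hjurp in 34.5% of control and 54.3% of Maf LSEC-KO LSECs. Cenpf (chromosome 1, 189640606 to 189688086), a kinetochore protein of G2 and mitosis, differed more, with 30.0 CPM (28.2 to 32.0) from 979 UMIs in the control library, against 167 CPM (163 to 171) from 6724 UMIs in the Maf LSEC-KO library, for a log2 ratio of 2.47 (2.38 to 2.57). The motor gene Cenpe had 319 and 2330 UMIs, 9.79 and 57.8 CPM, a log2 ratio of 2.56. The genes of the Ndc80 complex, the microtubule hook of the kinetochore, were lower in level. Ndc80 had 252 and 1314 UMIs, 7.73 and 32.6 CPM, a log2 ratio of 2.08. Nuf2 had 114 and 758 UMIs, 3.5 and 18.8 CPM, a log2 ratio of 2.43. The 3 genes of the passenger complex, which corrects wrong attachments, had the highest ratios of this group. Birc5, which encodes survivin, had 306 and 3281 UMIs, 9.39 and 81.5 CPM, a log2 ratio of 3.12. Aurkb, its kinase, had 136 and 1369 UMIs, 4.17 and 34 CPM, a log2 ratio of 3.03. Cdca8, which encodes borealin, had 216 and 2073 UMIs, 6.63 and 51.5 CPM, a log2 ratio of 2.96.

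The 5 mitotic kinases and checkpoint genes were rarer, with a summed level of 16.4 CPM in control, 89.2 CPM in the Maf LSEC-KO library and a log2 ratio of 2.44 (2.31 to 2.57). Plk1, the kinase that acts from mitotic entry to cytokinesis, had the highest ratio of the 44, with 79 UMIs (2.42 CPM) in control LSECs but 925 UMIs (23.0 CPM) in those of Maf LSEC-KO mice, a log2 ratio of 3.24 (2.91 to 3.59). The other kinases were less far apart. Aurka, the centrosomal Aurora kinase, had 128 and 732 UMIs, 3.93 and 18.2 CPM, a log2 ratio of 2.21. Bub1 and Ttk encode kinases of the spindle checkpoint. Bub1 had 116 and 908 UMIs, 3.56 and 22.5 CPM, a log2 ratio of 2.66. Ttk had 139 and 696 UMIs, 4.27 and 17.3 CPM, a log2 ratio of 2.02. Nek2, a kinase of centrosome separation, had 74 and 330 UMIs, 2.27 and 8.19 CPM, a log2 ratio of 1.85, the lowest of these 5. The 3 genes tied to ubiquitin-driven exit from mitosis had a summed level of 20.3 CPM in control, 156 CPM in the Maf LSEC-KO library and a log2 ratio of 2.94 (2.83 to 3.06), the highest ratio of the 7 groups. Ube2c (chromosome 2, 164769898 to 164778822), the ubiquitin-conjugating enzyme of the anaphase-promoting complex, had a level of 11.3 CPM (10.2 to 12.5) from 368 UMIs in the control library, against 97 CPM (94.0 to 100.1) from 3906 UMIs in the Maf LSEC-KO library, for a log2 ratio of 3.10 (2.95 to 3.26). Cdc20, which activates that complex, had 182 and 1384 UMIs, 5.58 and 34.4 CPM, a log2 ratio of 2.62. Cdca3, a trigger of mitotic entry that the complex itself degrades, had 110 and 977 UMIs, 3.38 and 24.3 CPM, a log2 ratio of 2.85. A UMI of Ube2c was found in 1.63% of control and 14.7% of Maf LSEC-KO LSECs, or 0.785% and 6.82% after thinning.

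The 5 genes of cytokinesis had a summed level of 55.2 CPM in control, 275 CPM in the Maf LSEC-KO library and a log2 ratio of 2.32 (2.24 to 2.39). Prc1 (chromosome 7, 80294450 to 80316259), which bundles the microtubules of the midzone, was the most abundant, with 19.1 CPM (17.6 to 20.6) from 622 UMIs in the control library, against 106 CPM (103 to 109) from 4256 UMIs in the Maf LSEC-KO library, for a log2 ratio of 2.47 (2.35 to 2.59). It was found in 1.61% of control and 17.6% of Maf LSEC-KO LSECs, which thinning lowered to 1.16% and 8.58%. Kif23, the motor of centralspindlin, had 293 and 2181 UMIs, 8.99 and 54.2 CPM, a log2 ratio of 2.59. Kif20b, another kinesin of the midzone, had 381 and 2091 UMIs, 11.7 and 51.9 CPM, a log2 ratio of 2.15. Anln, which encodes the scaffold anillin of the contractile ring, had 312 and 1756 UMIs, 9.57 and 43.6 CPM, a log2 ratio of 2.19. Ect2, the exchange factor that switches on RhoA at the cleavage site, differed least of the 5, with 191 and 789 UMIs, 5.86 and 19.6 CPM, a log2 ratio of 1.74.

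Free RNA gives UMIs in cells that do not transcribe a gene, so the share of cells with a UMI was also taken in B cell-like cells, of which none was member-high. Their median depths were 7555 and 5977 UMIs, and resting B cells may transcribe Hmgb2 and Smc4 themselves. Hmgb2 was found in 66.7% of control and 69.2% of Maf LSEC-KO B cell-like cells, and Smc4 in 54.2% of control and 46.2% of Maf LSEC-KO B cell-like cells. Cenpa was found in 35.4% of control and 28.2% of Maf LSEC-KO B cell-like cells, and Hjurp in 31.2% of control and 20.5% of Maf LSEC-KO B cell-like cells. The shares in control LSECs were near those of the B cell-like cells for Cenpa and Hjurp and below them for Hmgb2 and Smc4. For these 4 genes the shares alone thus do not show expression in control LSECs. Mki67 was found in 2.08% of control and 7.69% of Maf LSEC-KO B cell-like cells, Top2a in 6.25% of control and 15.4% of Maf LSEC-KO B cell-like cells, and Cdk1 in 8.33% of control and 2.56% of Maf LSEC-KO B cell-like cells. For these 3 genes too, control LSECs did not stand clearly above B cell-like cells, whereas the shares of Maf LSEC-KO LSECs were higher. Depth differed, with medians of 13931 UMIs in Maf LSEC-KO LSECs and 5977 in the 39 B cell-like cells. Thinned to 2700 UMIs, these LSECs were at 14.4% for Top2a, 14.1% for Mki67 and 11.8% for Cdk1. Shares of B cell-like cells were not thinned, so the shares alone do not place Top2a above them. Ube2c and Prc1 had no UMI in the 48 control B cell-like cells, where 3 counts would be a share of 6.25%, and were found in 7.69% and 2.56% of the Maf LSEC-KO ones.

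To see whether the higher level was spread over the LSECs or held by some of them, the share of each cell's UMIs outside mitochondrial and ribosomal protein genes that the 44 genes take together was computed. The median share was 0.0389% in control LSECs (quartiles 0.0204% and 0.0636%) and 0.0969% in Maf LSEC-KO LSECs (0.0614% and 0.167%). The 95th percentile was 0.136% and 1.97%, and the highest cell held 4.18% and 5.26%. Cells with a share of at least 0.5% are called member-high here; this is a range of a per-cell value and not a cell type. There were 50 such cells among 4098 control LSECs, 1.22% (0.907 to 1.61), and 402 among 3251 Maf LSEC-KO LSECs, 12.4% (11.3 to 13.5). The share of member-high cells was 10.1 times that of control. The Clopper-Pearson intervals do not overlap, but they count cells of 1 library each and do not cover differences between mice. After thinning to 2700 UMIs the shares were 1.35% of 3693 and 12.7% of 3066 LSECs. Without the clusters led by erythroid or stellate cell genes they were 1.82% of 2585 and 18.8% of 2072. Between 0.4% and 0.6% lay 7 control and 70 Maf LSEC-KO LSECs, and between 0.25% and 0.5% lay 31 and 194. At a limit of 0.25%, 81 control LSECs (1.98%) and 596 Maf LSEC-KO LSECs (18.3%) would be member-high. At a limit of 1%, 38 and 297 LSECs remained, and at 3%, 13 and 65.

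**Figure D2:**
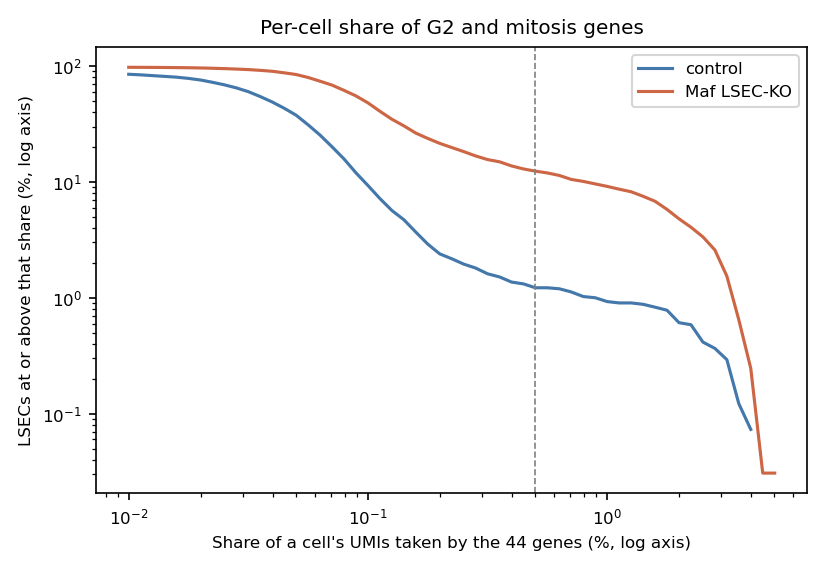
Percent of LSECs (vertical, log axis) whose 44 genes together take at least the share of UMIs on the horizontal log axis, for control (blue) and Maf LSEC-KO (orange), with the limit of 0.5% dashed. The orange curve lies above the blue one over the whole range up to the highest shares, with 9.30% of control and 48.0% of Maf LSEC-KO LSECs at or above 0.1%.

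Member-high cells lay mostly in 1 cluster of each library. The 44 genes and the other cycle lists had been left out of the genes used for clustering, but cycle genes outside these lists had not. Histone genes such as Hist1h1b were among the leading genes of both clusters. In control, 46 of the 50 were in cluster 9, where they made up 74.2% of 62 LSECs, and in the Maf LSEC-KO library 378 of the 402 were in cluster 3, 64.7% of 584 LSECs. The next highest counts were 3 of 692 LSECs in control cluster 3, which was led by hemoglobin genes, and 12 of 1136 in Maf LSEC-KO cluster 2. Median UMIs were higher in member-high than in other LSECs of both libraries, 14847 against 8369.5 in control and 20224 against 13376 in Maf LSEC-KO. In member-high cells a median of 33.5 and 35 of the 44 genes had a UMI, and in the others 2 and 5. Member-high cells held 1.93% of all counted LSEC UMIs and 49.2% of those of the 44 genes in control, and 17.2% and 77.0% in the Maf LSEC-KO library.

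How strictly a gene was held by these cells differed between members. The part of a gene's UMIs found in member-high LSECs had a median of 82.6% in control and 88.7% in Maf LSEC-KO over the 44 genes. It was over 90% for 13 and 20 genes, with Hmmr the highest in both (95.9% and 96.8%). The genes at the other end were Cenpa (10.1% and 38.3%), Hjurp (15.5% and 52.1%), Smc4 (17.6% and 56.1%) and Hmgb2 (28.7% and 65.2%). These 4 genes thus had most of their control UMIs outside member-high cells. Since the genes themselves set which cells are member-high, these parts are a description.

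Below the limit, the genes were also higher in Maf LSEC-KO LSECs. Their sum was 476 CPM (469 to 484) over 4048 control cells but 1132 CPM (1121 to 1144) over 2849 Maf LSEC-KO cells, with a log2 ratio of 1.25. All 44 genes were higher there with a counting interval above 0, and of the 41 that passed the filter of 1 CPM, 34 were at least 2-fold higher, beside 12.2% of 12311 genes. At least 4-fold higher were 23 of them, beside 4.4% of all genes, and none was 2-fold lower, beside 5.14%. Macrophage-like cells below the same limit are given for comparison. They take up free RNA of the suspension with their droplets as LSECs do, but may transcribe some of the genes themselves. In these the sum was 579.7 CPM in 220 control and 656 CPM in 383 Maf LSEC-KO cells, a log2 ratio of 0.18 (0.056 to 0.30). The ratio differed among the immune classes below the limit. It was 0.70 (0.42 to 0.97) in B cell-like cells, at 603 CPM in 48 control and 976 CPM in 39 Maf LSEC-KO cells, 0.41 (0.20 to 0.62) in neutrophil-like cells and -0.16 (-0.40 to 0.086) in T/NK cell-like cells. The neutrophil-like cells, at 1486 and 1970.0 CPM, lay above the LSECs of both libraries, and the T/NK cell-like cells, at 1274 and 1142 CPM, above those of control and near those of Maf LSEC-KO. Median UMIs of all macrophage-like cells were 5136 and 4565.

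Gene by gene, the level in Maf LSEC-KO LSECs below the limit lay above that of the macrophage-like cells, with a counting interval above 0, for 12 of the 44 genes, below it for 2 and could not be told apart for 30. In control LSECs it lay above for 1 gene, Cenpa, and below for 13. These counts were not made over all genes, so they do not set the members apart from other genes. Among the abundant ones in the Maf LSEC-KO library were Cenpa (125 against 32.6 CPM), Hmgb2 (358 against 151 CPM) and Stmn1 (109 against 49.2 CPM). For Smc4 the values were 135 and 81.8 CPM, for Cdk1 33.7 and 19.7 CPM, and for Tpx2 17.1 and 7.60 CPM. The other genes above were Ckap2, Ckap2l, Kif20b, Ccnb2, Cks2 and Ttk, of which Ttk had the highest ratio of the 12 but rests on 1 UMI in the macrophage-like cells. Top2a (31.9 and 25 CPM), Birc5 (7.73 and 6.26 CPM) and Prc1 (9.08 and 6.26 CPM) could not be told apart from the macrophage-like cells. Mki67 was below their level, with 24.2 and 33.5 CPM. For most of the 44 genes, this comparison cannot separate expression from free RNA in LSECs below the limit. The macrophage-like cells were less deep and are not a floor of free RNA. Kif23, for example, was at 1.19 CPM in control LSECs below the limit and 27.3 CPM in control macrophage-like cells. Hjurp was at nearly 1 level in every class, from 55.6 CPM in control T/NK cell-like cells below the limit to 82.1 CPM in Maf LSEC-KO neutrophil-like cells, apart from 44.4 CPM in the dendritic cell-like cells.

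Within member-high LSECs the order of the libraries was the reverse in CPM, which is a share of UMIs and not mRNA per cell. For each gene, LSECs in which the other 43 genes took at least 0.5% were compared, so that the gene itself did not choose the cells (49 to 50 control and 356 to 402 Maf LSEC-KO LSECs). Of the 44 genes, 39 were lower and 5 higher in Maf LSEC-KO, with a median log2 ratio of -0.46. The counting interval lay below 0 for 32 genes and above 0 for 1, Hmgb2. This count was not made over all genes, and with many UMIs such an interval can leave out 0 at a small difference. Only Nek2 and Ect2 were at least 2-fold lower, which were 2 of 44, beside 4.95% of 7255 genes at a mean of at least 20 CPM in all member-high LSECs, and none was 2-fold higher, beside 5.95%. The median log2 ratio of all these genes was -0.014. Nek2 had 109.8 CPM in control and 44.2 CPM in Maf LSEC-KO, and Ect2 207 and 98.5 CPM. The next lowest ratios were those of Anln at 434 and 231 CPM, Ccna2 at 433 and 232 CPM, Ckap2l at 425 and 254 CPM and Prc1 at 948 and 572 CPM. All 5 genes of cytokinesis had intervals below 0, from -1.07 to -0.50.

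At the other end, Hmgb2 had 2813 CPM in control and 3441 CPM in Maf LSEC-KO, a log2 ratio of 0.29 (0.22 to 0.36). Plk1 (0.25 (-0.11 to 0.64)), Kif2c (0.22 (-0.30 to 0.77)), Cdk1 (0.18 (-0.00043 to 0.37)) and Gtse1 (0.18 (-0.37 to 0.78)) also had ratios above 0, and their intervals hold 0. The passenger complex genes were at nearly equal levels, Birc5 at 449 and 437 CPM, Aurkb at 181 and 181 CPM, and Cdca8 at 261 and 257 CPM. Ube2c was at 535 and 531 CPM. The lower levels rest on 50 control cells and depend on the choice of cells. After thinning the median was -0.17, with 30 genes lower and 9 intervals below 0. Among LSECs in which a list of 45 S-phase genes took at least 0.5% of UMIs (33 control and 241 Maf LSEC-KO member-high cells) it was -0.81, and among those under 0.5% (17 and 161 cells) -0.011, with 22 genes lower and 22 higher and a summed log2 ratio of 0.017 (-0.026 to 0.060). The lower level was thus found among the cells that also had a high S-phase share.

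**Figure D3:**
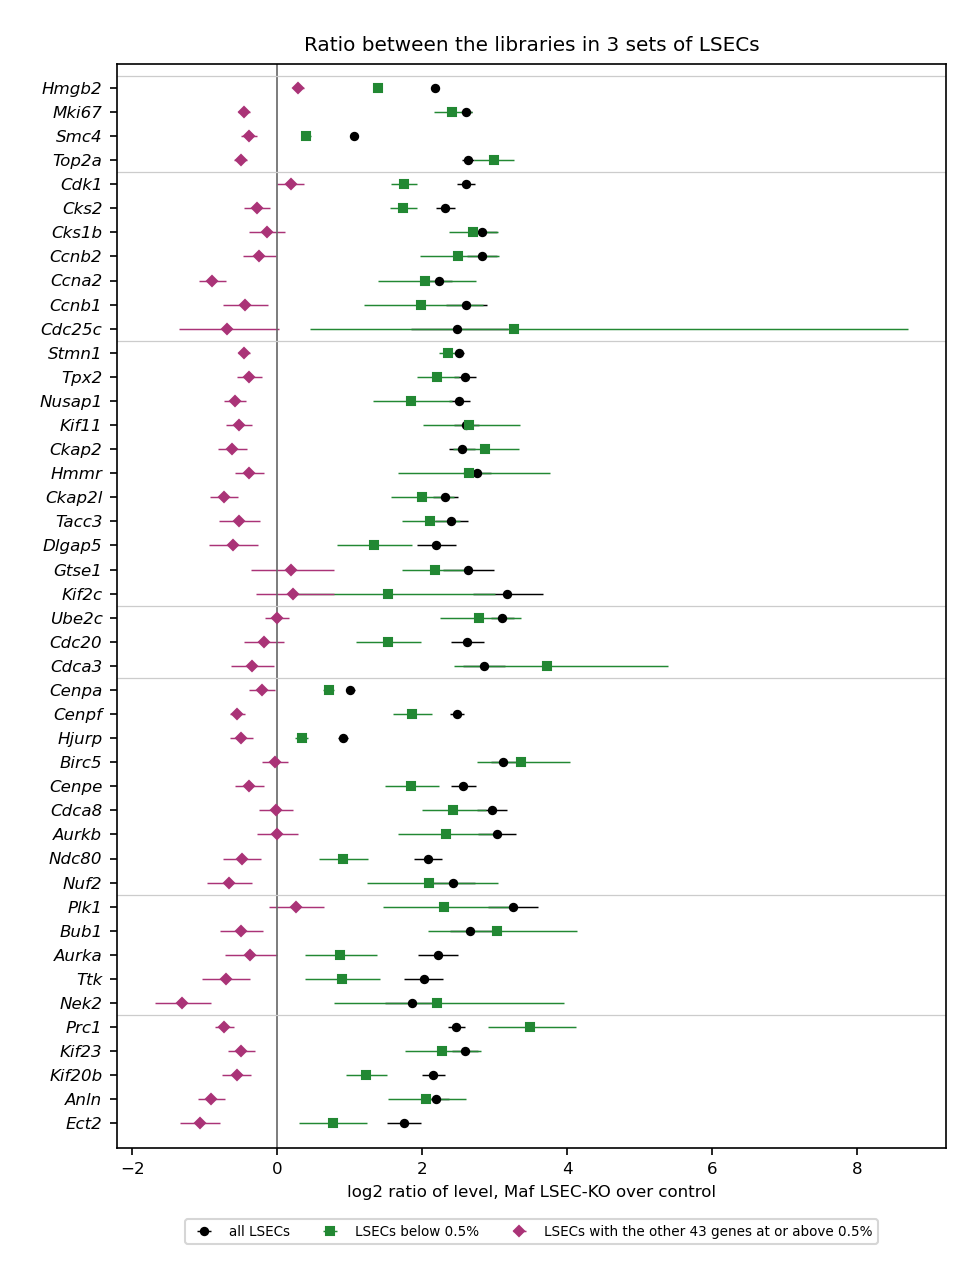
Log2 ratio of the level of each gene, Maf LSEC-KO over control, in all LSECs (black circles), in LSECs below the limit of 0.5% (green squares) and in LSECs in which the other 43 genes take at least 0.5% (purple diamonds), with exact 95% intervals for counting error. Black and green points all lie above 0, and 39 of the 44 purple ones below it.

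Member-high cells were therefore divided by their S-phase share, which the limit on the 44 genes did not use. An S-phase share of at least 0.5% was found in 33 of 50 control member-high cells, 66.0% (51.2 to 78.8), and in 241 of 402 Maf LSEC-KO ones, 60.0% (55.0 to 64.8). These intervals overlap. Among all LSECs, a high S-phase share without a high share of the 44 genes was found in 24 control cells, 0.586% (0.376 to 0.870), and in 133 Maf LSEC-KO cells, 4.09% (3.44 to 4.83). For each gene, the log2 ratio of its level in member-high cells of low to those of high S-phase share gives its lean within the cycle. The 6 genes with the highest mean of the control and the Maf LSEC-KO lean were Cdc25c (1.78 and 2.51), Cdc20 (1.48 and 2.33), Kif2c (1.60 and 2.09), Ccnb1 (1.56 and 2.04), Cenpa (1.46 and 1.68) and Cenpe (1.57 and 1.57). Apart from Cenpa, the centromeric histone, their products act from the onset of mitosis to its exit. The 3 with counting intervals below 0 in both libraries, and so with a lean to high S-phase share, were Ndc80 (-1.53 and -0.23), Aurkb (-1.26 and -0.35) and Stmn1 (-0.84 and -0.23).

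The order of the genes was much the same in both libraries, with a Spearman correlation of 0.845 across the 44 genes, which share cells and depth within a library and are not replicates. The lean was shifted between the libraries. In control, 12 genes had a counting interval above 0 and 12 below it, and in Maf LSEC-KO 37 above and 3 below. These counts also follow the number of UMIs, with 50 control and 402 Maf LSEC-KO member-high cells. They do not measure the size of the shift and were not made over all genes. Top2a leaned to high S-phase share in control, with 1076 CPM at low and 2328 CPM at high S-phase share, and was at 1328 and 1296 CPM in Maf LSEC-KO. Cdk1 was at 250.1 and 497 CPM in control and at 539 and 419 CPM in Maf LSEC-KO. The largest shifts were those of Plk1, at 104 and 103 CPM in control and 206 and 68.4 CPM in Maf LSEC-KO, and of Ube2c, at 595 and 504 CPM and at 925 and 269 CPM. The control values rest on 17 cells of low and 33 of high S-phase share.

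**Figure D4:**
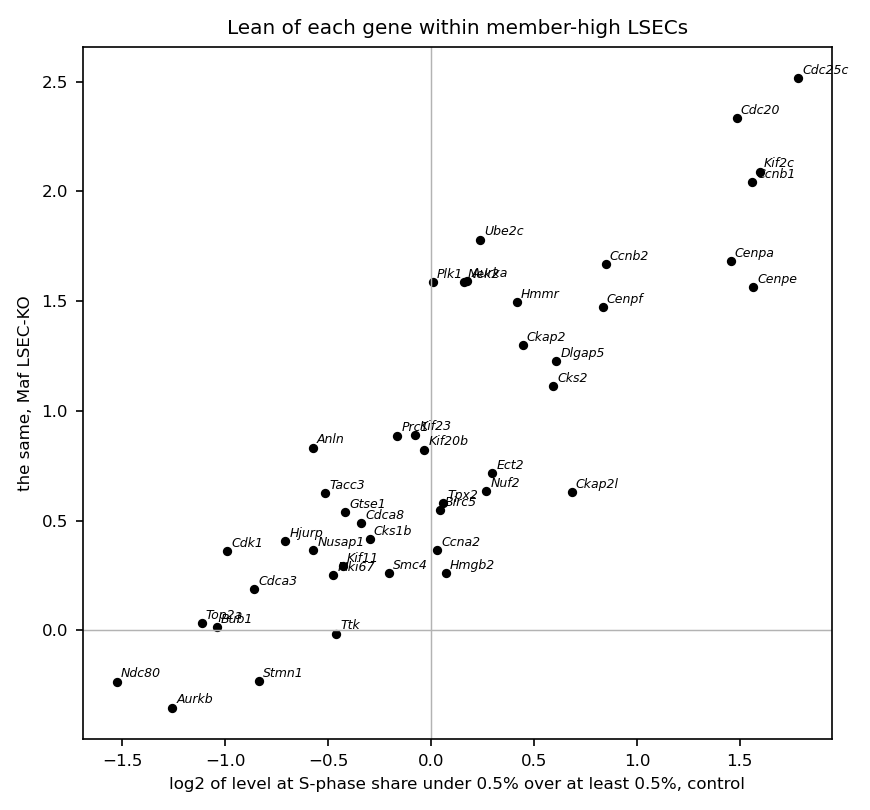
For each gene, log2 of its level in member-high LSECs with an S-phase share under 0.5% over those with at least 0.5%, in control (horizontal) and Maf LSEC-KO (vertical), grey lines at 0. The genes run from Ndc80 and Aurkb at the lower left to Cdc20 and Cdc25c at the upper right, and most lie above 0 on the vertical axis.

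Member-high cells were also counted in the immune cells of the same libraries, named -like from their marker genes. In control, they were 7 of 344 (2.03%, 0.822 to 4.15) immune-like cells, and in the Maf LSEC-KO library 14 of 650 (2.15%, 1.18 to 3.59). The intervals of these shares overlap widely, unlike those of the LSECs, which rest on more cells. Macrophage-like cells held most of them, 5 of 225 (2.22%, 0.725 to 5.11) in control and 11 of 394 (2.79%, 1.40 to 4.94) in Maf LSEC-KO. Of T/NK cell-like cells, 1 of 30 (3.33%, 0.0844 to 17.2) and 2 of 61 (3.28%, 0.40 to 11.3) were member-high, and of neutrophil-like cells 1 of 41 (2.44%, 0.0617 to 12.9) and 1 of 86 (1.16%, 0.0294 to 6.31). No member-high cell was found among 48 control and 39 Maf LSEC-KO B cell-like cells, where 3 counts would be shares of 6.25% and 7.69%, nor among 70 dendritic cell-like cells of the Maf LSEC-KO library (4.29%).

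The level by class put LSECs below several immune classes in control. There the 44 genes summed to 919.5 CPM in LSECs, 1034 CPM in macrophage-like, 1567 CPM in neutrophil-like and 2134 CPM in T/NK cell-like cells. Without the member-high cells, of which T/NK cell-like cells had 1 and macrophage-like cells 5, these levels were 476, 579.7, 1486 and 1274 CPM. In the Maf LSEC-KO library, LSECs were highest with 4082 CPM, and macrophage-like, neutrophil-like and T/NK cell-like cells had 1271, 1995 and 1228 CPM. There the levels without member-high cells were 1132 CPM in LSECs and 656, 1970.0 and 1142 CPM in these classes, so that LSECs were no longer highest. Neutrophil-like cells carried the genes mainly as Hmgb2, at 962 CPM in control and 1220.5 CPM in Maf LSEC-KO cells below the limit, with Cks2 next at 209.8 and 302 CPM. Macrophage markers were also found in LSECs, with similar shares in member-high and other cells of a library. A UMI of at least 1 of 11 macrophage markers was present in 38.0% of member-high and 34.3% of other control LSECs and in 64.7% and 63.3% of Maf LSEC-KO LSECs. Left without every cell with a UMI of Adgre1, Clec4f, Ptprc, Cd52, Acta1 or Arg1, the member-high shares were 1.31% of 3501 control and 12.3% of 2245 Maf LSEC-KO LSECs.

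**Figure D5:**
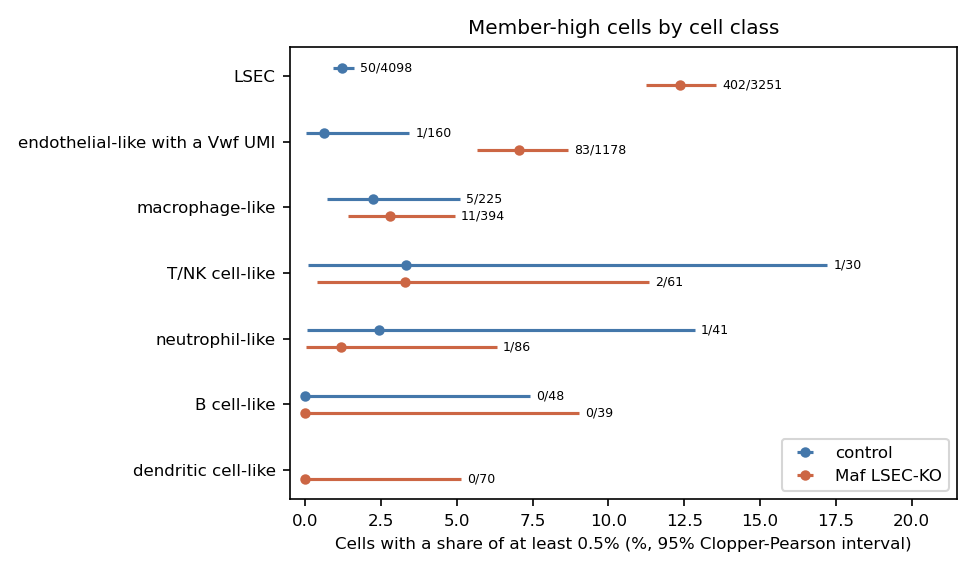
Percent of cells with a share of the 44 genes of at least 0.5%, by cell class, in control (blue) and Maf LSEC-KO (orange), with 95% Clopper-Pearson intervals and counts. LSECs and endothelial-like cells with a Vwf UMI are the classes whose intervals do not overlap between the libraries, and no dendritic cell-like cluster was named in control.

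Some LSECs of the Maf LSEC-KO library held Maf UMIs, which allowed a comparison within that library. Part of these UMIs, above all where there were few, may be free RNA, which was not tested. Of 2561 LSECs without a Maf UMI, 340 were member-high, 13.3% (12 to 14.7). Of 480 LSECs with 1 to 4 Maf UMIs, 56 were, 11.7% (8.93 to 14.9). Of 210 with at least 5, 6 were, 2.86% (1.06 to 6.11), which is the lowest of the 3 and does not overlap the interval of cells without Maf. The summed level of the 44 genes was 4275, 3997 and 1732 CPM in the 3 sets, and median UMIs were 13680, 17264 and 10042. With cells thinned to 2700 UMIs and Maf UMIs counted after thinning, 378 of 2761 cells without a Maf UMI (13.7%), 12 of 195 with 1 to 4 (6.15%) and 0 of 110 with at least 5 were member-high, the last with a Clopper-Pearson upper bound of 3.30%. These are cells of 1 library and not replicates. In control LSECs, which carried no Cre, Maf was also lower in member-high than in other cells, as given below.

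Genes with nearby roles differed between the libraries to varying degrees. Of a list of 46 other mitosis genes, all of which passed the filter, 42 were at least 2-fold higher and none 2-fold lower in Maf LSEC-KO LSECs, with a median log2 ratio of 2.45. The sum was 533 and 1627 CPM. The highest ratios among genes of at least 10 CPM were those of Ncapg (3.74 and 28.8 CPM, log2 ratio 2.94) and Ncaph (3.07 and 22.5 CPM, log2 ratio 2.87), subunits of condensin, and of Kif15 (5.16 and 36.9 CPM, log2 ratio 2.84), a spindle kinesin. The lowest were those of Pttg1 (73.7 and 74.1 CPM, log2 ratio 0.009), which encodes securin, G2e3 (42.6 and 66.3 CPM, log2 ratio 0.64), a ubiquitin ligase, and Ube2s (110.3 and 209 CPM, log2 ratio 0.92), which extends ubiquitin chains for the anaphase-promoting complex. Pttg1 differed from the 44 genes also within a library, with 25.5 CPM in member-high and 74.6 CPM in other control LSECs.

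Of the 45 S-phase genes, 35 were at least 2-fold higher and none 2-fold lower, with a median log2 ratio of 1.75 and a sum of 1054 and 2389.5 CPM. The highest were Rrm2 (6.20 and 45.8 CPM, log2 ratio 2.89), a subunit of ribonucleotide reductase, Cdc6 (2.76 and 20.3 CPM, log2 ratio 2.88), which licenses origins, and Rad51ap1 (3.77 and 25.5 CPM, log2 ratio 2.75), a factor of recombination. Among the lowest were Casp8ap2 (82.2 and 86.6 CPM, log2 ratio 0.075) and Slbp (116 and 142 CPM, log2 ratio 0.30), which binds histone mRNA. Within member-high cells the S-phase genes could not be told apart in summed level between the libraries, 6332 and 6402 CPM, a log2 ratio of 0.016 (-0.031 to 0.063), while the other mitosis genes were lower, 9149.6 and 6756 CPM, as the 44 genes were. Both lists were written with results of these data known.

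Among the genes that govern entry into the cycle, the D-type cyclins differed in direction. Ccnd1 had 712 CPM in control, 1446 CPM in the Maf LSEC-KO library and a log2 ratio of 1.02 (1.0 to 1.04). Ccnd2 went the other way, with 800.0 CPM in control, 455 CPM in the Maf LSEC-KO library and a log2 ratio of -0.81 (-0.84 to -0.79). Ccnd3 had 117 CPM in control, 148 CPM in the Maf LSEC-KO library and a log2 ratio of 0.34 (0.28 to 0.40). Myc, a transcription factor that promotes growth and cycling, had 4.60 CPM in control, 77.3 CPM in the Maf LSEC-KO library and a log2 ratio of 4.07 (3.83 to 4.32), a higher ratio than any of the 44 genes. Its level did not follow the 44 genes, with 67.7 CPM in member-high and 79.3 CPM in other Maf LSEC-KO LSECs. The inhibitors of cyclin-dependent kinases were likewise divided. Cdkn1c, which encodes p57, was lower, with 75.4 CPM in control, 15.7 CPM in the Maf LSEC-KO library and a log2 ratio of -2.27 (-2.39 to -2.14). Cdkn1a, which encodes p21, was higher, with 98.6 CPM in control, 320.0 CPM in the Maf LSEC-KO library and a log2 ratio of 1.70 (1.64 to 1.75). It was more abundant in member-high than in other cells, 655 against 87.6 CPM in control and 580.3 against 266 CPM in Maf LSEC-KO. Cdkn2c, which encodes p18, followed the 44 genes more closely, with 342 against 12.3 CPM in control and 173 against 14.9 CPM in Maf LSEC-KO, and a log2 ratio over all LSECs of 1.17 (1.04 to 1.31). Cdkn1b, which encodes p27, had 102 CPM in control, 82.7 CPM in the Maf LSEC-KO library and a log2 ratio of -0.30 (-0.37 to -0.23).

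Member-high LSECs were last compared with the other LSECs of their library in genes that mark the state of LSECs, given as member-high against other. The sinusoidal genes were lower in member-high cells of both libraries. Markers of other cells differed in direction. The 7 stellate cell markers summed to 4.77 against 127 CPM in control (6 of them at 0 in member-high cells) and to 7.52 against 161 CPM in Maf LSEC-KO (1 at 0). The 6 erythroid markers, all at 0 in control member-high cells, summed to 136 CPM in the other control LSECs, and to 7.08 against 12.4 CPM in Maf LSEC-KO. The 6 hepatocyte markers were at 98.6 against 141 CPM in control and 41.4 against 78.8 CPM in Maf LSEC-KO, and the 11 macrophage markers at 44.5 against 73.5 CPM in control but at 151 against 130 CPM in Maf LSEC-KO. The 6 markers of other cell types were at 12.7 against 23.5 CPM and at 47.7 against 42.3 CPM. The part of these cells in the levels was not tested. Clec4g was at 1424 against 3057 CPM in control and 997 against 1615 CPM in Maf LSEC-KO, the scavenger receptor gene Stab2 at 913 against 1651 CPM in control and 127 against 187 CPM in Maf LSEC-KO and the hyaluronan receptor gene Lyve1 at 598 against 723 CPM in control and 350.3 against 408 CPM in Maf LSEC-KO. Maf was at 1701 against 3508 CPM in control and 24.1 against 144 CPM in Maf LSEC-KO. Cd34 and Pdgfb, genes of continuous capillaries, differed more between the libraries than between the cells of a library. Cd34 was at 68.4 against 29.3 CPM in control and 399 against 382 CPM in Maf LSEC-KO, and the growth factor gene Pdgfb at 31.8 against 13.9 CPM in control and 148 against 135 CPM in Maf LSEC-KO. Emcn, which encodes an endothelial sialomucin, was at 340.5 against 258 CPM in control and 443 against 468 CPM in Maf LSEC-KO, so that it differed as much between control cells as between member-high cells of the libraries. Of the genes of sprouting endothelium, Esm1 was at 6.36 against 14.1 CPM in control and 106 against 114 CPM in Maf LSEC-KO, and Kcne3 at 1.59 against 3.94 CPM in control and 38.0 against 47.5 CPM in Maf LSEC-KO. Ly6c1 was at 433 against 626 CPM in Maf LSEC-KO, and in control it had no UMI in member-high cells and 8.42 CPM in the others. Since member-high cells rest on their high share of other genes, all other levels in CPM are lowered there by about the share the 44 genes take, a median of 1.98% in control and 1.71% in Maf LSEC-KO. Lower Stab2 and higher Cd34 were thus found in member-high and in other LSECs of the Maf LSEC-KO library.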

How the data were processed

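Single-cell 3′ RNA libraries of CD146-enriched liver cells, 1 per genotype and each from 3 pooled mice, were analysed from the deposited matrices of whole UMI counts per gene and cell, which the authors made with Cell Ranger 6.0.2 and the mm10 genome. Cell Ranger leaves out reads that match several genes, so a gene with a near-identical copy may be undercounted. The submitters' processing notes also name Seurat 5.0.1. The authors' later correction, subtraction of the mean of empty droplets, is not in these counts and was not repeated. The libraries hold 47681895 and 89872764 UMIs over 5664 control and 7091 Maf LSEC-KO barcodes, each with at least 500 UMIs.

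Barcodes of 1500 or more UMIs and 750 or more genes (4961 and 5423) were clustered per library in Seurat 5.3.0 (R 4.3.3; 2000 variable genes, 16 and 20 components, resolution 0.3), with the 44 genes and the lists of other mitosis and S-phase genes left out of the variable genes. A cluster was endothelial-like with Pecam1 and at least 7 of 14 endothelial markers in 50% of its cells, and other clusters were named from at least 3 markers among 50 leading genes. The automatic limit of Scrublet (scanpy 1.11.5) marked 0 cells, so the 225 (4.53%) and 308 (5.67%) cells with the highest scores were removed, at 0.8% per 1000 cells, a rule set after the scores were seen. Levels were computed from summed UMIs per 1000000 outside mitochondrial and ribosomal protein genes. Ratios over all genes were taken for genes with a mean of at least 1 CPM. Poisson intervals for levels, binomial intervals conditional on the total for ratios and Clopper-Pearson intervals for shares (95%, scipy 1.17.1) cover counting error only. A gene counted as called when past 2-fold. The scripts were tested on simulated data. All 44 genes are named with UMIs, CPM and ratio, and the 12 with the most UMIs in full. Of the other mitosis and S-phase lists the 3 highest and 3 lowest ratios at a mean of at least 10 CPM are named, except 1 that is not reported here, and of the lists of G1 cyclins and brakes and of LSEC state every gene. Promoter windows were matched by symbol, and gene positions are those of the mm10 annotation. Members and lists were chosen with earlier results of these data known. The settings that leave out clusters led by erythroid or stellate cell genes or cells with stellate cell markers, and those that divide member-high cells by S-phase share, were chosen after seeing the data.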

Additional observations from a re-analysis of the deposited data

Results flagged for a closer look

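Member-high cells were also found among cells that the comparisons did not use, and more often in the Maf LSEC-KO library. Among endothelial-like cells with a Vwf UMI, 83 of 1178 Maf LSEC-KO cells (7.05%, 5.65 to 8.66) and 1 of 160 control cells (0.625%, 0.0158 to 3.43) were member-high. Among endothelial-like cells removed as doublets, 73 of 187 Maf LSEC-KO cells (39.0%, 32.0 to 46.4) and 7 of 182 control cells (3.85%, 1.56 to 7.76) were member-high, with median UMIs of 31213 and 14328. In barcodes below the minimum of 1500 UMIs or 750 genes, the 44 genes were at 2494 CPM (2396 to 2595) in 1668 Maf LSEC-KO barcodes and at 722 CPM (644 to 806) in 703 control barcodes, with median UMIs of 695.5 and 861.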

How the results depend on the processing

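Several values moved with the settings. Within member-high LSECs of an S-phase share under 0.5%, the sum of the 44 genes no longer differed in the same direction, with a log2 ratio of 0.017 (-0.026 to 0.060) and 22 genes higher and 22 lower, against -0.36 and 5 and 39 over all member-high LSECs. The summed log2 ratio of the 44 genes (2.15) was 1.96 with UMIs of all genes as the denominator, 2.0 under TMM factors (edgeR 4.0.16), 1.99 under the median of ratios, 2.25 without doublet removal, 2.04 with Vwf cells kept, 2.11 without cells holding a marker of another cell type, 2.18 with the cycle genes kept for clustering, 2.26 without the 3 most abundant members and 2.52 without clusters led by erythroid or stellate cell genes. Members at least 2-fold higher numbered 40 to 44 in all 16 settings. The 40 were of 41 members, with the 3 most abundant left out, and a mean of at least 5 CPM gave 42 of 43. The control share of member-high LSECs (1.22%) was 1.98% at a limit of 0.25% and 1.82% without those clusters. The Maf LSEC-KO share (12.4%) was 11.1% with all genes as the denominator, 11.0% with Vwf cells kept, 9.87% without the top 3 members, 18.3% at a limit of 0.25%, 9.14% at 1% and 18.8% without those clusters. The median log2 ratio within member-high LSECs (-0.46) was -0.57 with all genes as the denominator, -0.41 under TMM, -0.43 under the median of ratios, -0.17 thinned, -0.39 with Vwf cells kept, -0.36 without cells holding a marker of another cell type, -0.37 without the top 3 members, -0.39 at a limit of 1%, -0.81 at an S-phase share of at least 0.5% and -0.011 under it. The cause of these shifts was not tested. No paired analysis was possible because each condition had 1 library, and no replicate could be left out for the same reason.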
